A study of Mus musculus with 8 samples.

Results

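Transcripts of 9 genes of the oxygen-sensing system, chosen by name from the 16994 genes of a mouse heart RNA-seq table, were followed across heart regions. They are the hypoxia-inducible factor (HIF) alpha subunits Hif1a, Epas1 and Hif3a, their partner Arnt, the prolyl hydroxylases Egln1, Egln2 and Egln3, the ubiquitin ligase subunit Vhl and the asparaginyl hydroxylase Hif1an. All 9 passed the expression filter of 1 CPM on average (CPM are counts scaled to the size of each library), as did 12999 genes in all. Whole-body TIGAR knockout mice (TKO) and wild-type mice (WT), all male, were compared. Infarction was induced at 16 weeks of age by permanent ligation of the left anterior descending coronary artery, and infarct, border and remote zones were later taken, at a time not given for the RNA; a left ventricle sample of each genotype served as reference, and it was not stated whether those mice had been operated. There was 1 library per genotype and region, 8 in all. The infarct zone libraries each pooled RNA of 3 mice per genotype; the number behind the other libraries was not stated.

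In well-oxygenated cells the prolyl hydroxylases use oxygen to hydroxylate HIF alpha subunits. VHL binds the hydroxylated form and directs it to the proteasome, while the asparaginyl hydroxylase blocks recruitment of the p300 and CBP coactivators. When oxygen falls the alpha subunit accumulates, pairs with ARNT and binds hypoxia response elements in genes of glycolysis, angiogenesis and matrix formation, Egln3 and Egln1 among them. Most of this control acts on protein, which RNA-seq does not measure.

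The libraries held 27429240 to 33799249 counts each. Tigar counts were 1066 to 2215 in the 4 WT libraries and 51 to 87 in the 4 TKO libraries, which matched the genotype labels. Markers of heart muscle were abundant, with all 8 cardiomyocyte markers above 0 in every library. The infarct zones differed in make-up from the rest: the summed cardiomyocyte markers stood at 9027 CPM in WT and 19590 in TKO infarct, against 30650 to 44540 in the other 6 libraries. All 7 fibroblast and all 8 macrophage and leukocyte markers were higher in the infarct zone than in the left ventricle (edgeR quasi-likelihood test, adjusted p under 0.05). Mitochondrial DNA-encoded genes took 20.7% of the counts in WT infarct, 27.9% in TKO infarct and 36.6 to 39.3% elsewhere. Endothelial markers summed to 594 to 823 CPM. The 4 atrial markers summed to between 188 CPM in the WT left ventricle and 3045 in WT infarct, and red cell markers to between 1390 and 3340. The atrial markers did not move together. Nppa was 9.86-fold the left ventricle level in infarct and called, while Myl7 (1.095-fold), Sln (1.77-fold) and Myl4 (1.38-fold) were not. Against remote zone Myl7, Sln and Myl4 were called lower in infarct, and Nppa was not called. In these bulk samples, fewer cells of a type and less RNA per cell cannot be told apart.

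Promoter sequences are shown for the 3 members that were lower in the infarct zone than in the left ventricle, Egln3 because it is a textbook HIF target, Egln1 and Hif1an added because they passed the test. Each runs from 250 bases before to 50 bases after the RefSeq start (GRCm38.p6), read 5′ to 3′ on the gene's strand, with the core of the hypoxia response element in capitals. Egln3 lies on the minus strand at chr12:54203825-54204124, Egln1 on the minus strand at chr8:124949205-124949504, and Hif1an on the plus strand at chr19:44562604-44562903.
Egln3: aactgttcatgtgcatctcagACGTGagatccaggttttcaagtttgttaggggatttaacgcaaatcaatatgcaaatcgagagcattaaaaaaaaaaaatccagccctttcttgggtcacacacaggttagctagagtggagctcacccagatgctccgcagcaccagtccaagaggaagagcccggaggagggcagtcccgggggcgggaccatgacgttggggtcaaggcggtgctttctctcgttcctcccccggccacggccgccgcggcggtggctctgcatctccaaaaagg
Egln1: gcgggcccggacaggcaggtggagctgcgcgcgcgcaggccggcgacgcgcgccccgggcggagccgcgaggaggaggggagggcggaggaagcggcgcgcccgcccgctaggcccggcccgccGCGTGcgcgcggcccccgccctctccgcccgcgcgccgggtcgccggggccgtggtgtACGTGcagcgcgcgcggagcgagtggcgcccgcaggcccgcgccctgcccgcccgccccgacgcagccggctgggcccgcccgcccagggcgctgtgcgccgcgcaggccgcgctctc
Hif1an: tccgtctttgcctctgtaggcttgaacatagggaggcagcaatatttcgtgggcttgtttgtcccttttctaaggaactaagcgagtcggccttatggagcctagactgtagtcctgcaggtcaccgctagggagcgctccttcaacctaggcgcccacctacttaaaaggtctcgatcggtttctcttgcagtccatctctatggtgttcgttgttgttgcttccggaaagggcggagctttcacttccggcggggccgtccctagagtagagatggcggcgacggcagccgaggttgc

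The cores searched were ACGTG and GCGTG on both strands, where a CACGTG matches ACGTG once on each strand. Egln3 held 1 core, an ACGTG that starts 229 bases before the RefSeq start. Egln1 held 2, a GCGTG at -126 and an ACGTG at -68, and Hif1an held none in this window. The GENCODE starts given with the genes differ from these RefSeq starts. Of the 8 members with a promoter in the table, 6 held at least 1 core, and of 27025 mouse genes with promoters of the same 300-base length, 46.7% did. Vhl was the other member without one, and Epas1 had no entry.

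Levels of different genes were compared per length, as CPM per kilobase of the longest annotated transcript (GENCODE, GRCm38), with the libraries scaled by the trimmed mean of M-values (TMM). Egln1, which encodes PHD2, the main oxygen sensor of most tissues, had the highest level, with a median of 115 CPM per kilobase over the 8 libraries (range 38.1 to 137). Epas1, which encodes HIF-2 alpha, followed at 48.7 (36.1 to 58.0). Egln1 lay above Epas1 in 8 of 8 libraries on this scale, by only 38.1 against 36.1 in WT infarct. Egln2, encoding PHD1, stood at 27.8, Hif1a at 21.1 and Egln3, encoding PHD3, at 19.5. These neighbours were not cleanly ordered, since Hif1a lay above Egln3 in 4 of 8 libraries and Egln2 above Hif1a in 7. Hif1an followed at 11.4 and Arnt at 9.31, with Hif1an above Arnt in 6 of 8 libraries. Vhl at 3.4 and Hif3a at 0.296 came last in every library. Egln1 and Egln3 have 1 annotated transcript each, while the others have up to 11, so the per-length order depends on which transcript is taken.

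**Figure D1:**
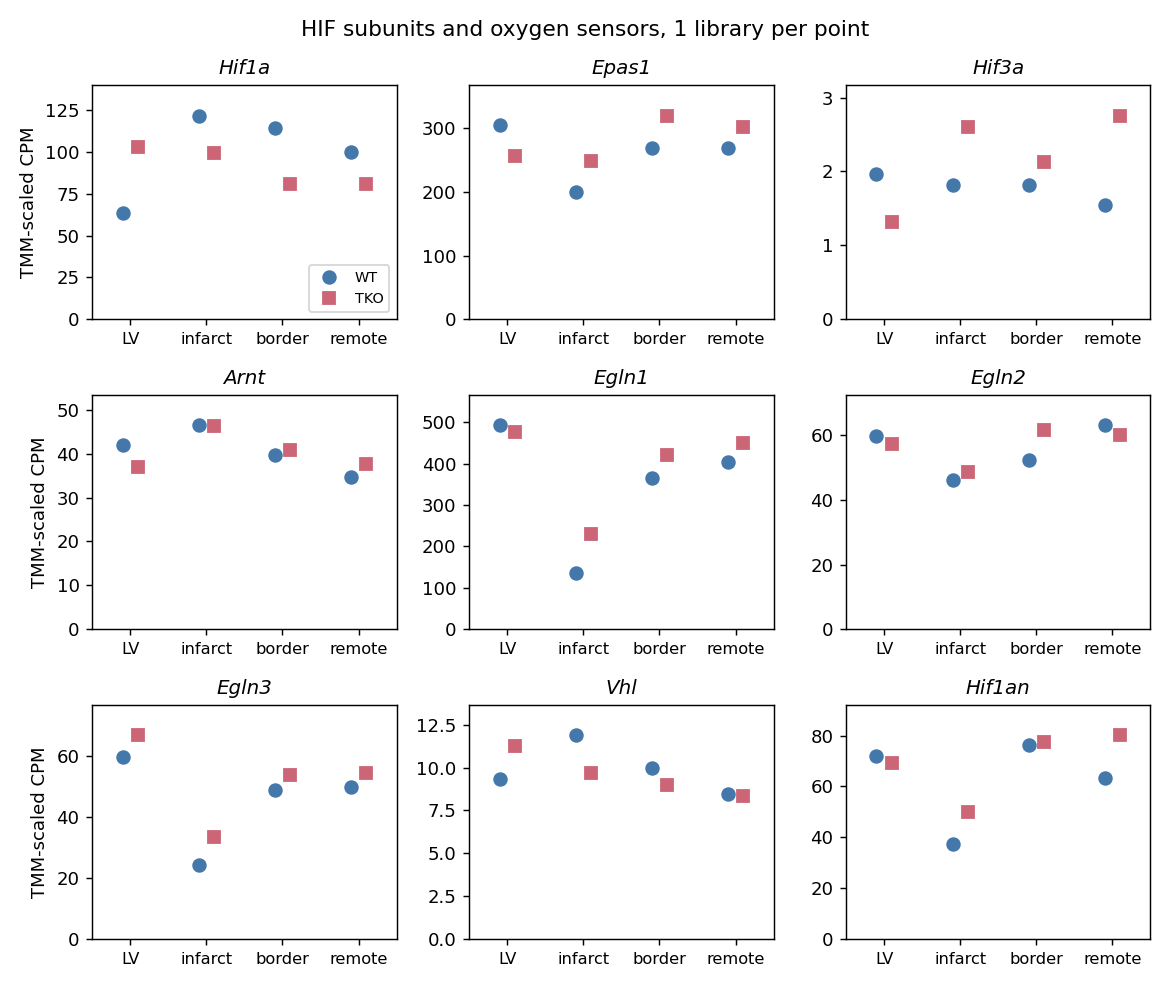
TMM-scaled CPM (vertical axes, from 0, not per length) of the 9 genes in the 4 regions, with 1 library per point, WT as circles and TKO as squares. Epas1, Egln1, Egln2, Egln3 and Hif1an are lowest in the 2 infarct libraries, and Hif1a is lowest in the WT left ventricle at 63.5 CPM.

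Hif1a, whose product is the widely expressed oxygen-labile alpha subunit, lies at chr12:73901375-73947530. Its TMM-scaled level was 63.5 CPM in WT and 103 in TKO left ventricle, 121.8 and 99.5 in infarct, 114.5 and 80.7 in border, and 100.1 and 80.8 in remote zone. The WT left ventricle was thus the lowest of the 8 libraries, below the 80.7 to 121.8 CPM of the other 7, which included the TKO left ventricle. TKO exceeded WT in the left ventricle and lay below it in the other 3 regions. The TKO over WT ratio was 1.62 in the left ventricle (95% interval 1.53 to 1.73, counting error only), 0.817 in infarct, 0.704 in border and 0.807 in remote zone. Within WT, Hif1a was 1.92-fold the left ventricle level in infarct, 1.80-fold in border and 1.58-fold in remote zone. Within TKO the same ratios were 0.965, 0.783 and 0.784. The test of the left ventricle's departure from the other 3 regions gave a log2 difference of 1.07 ± 0.16 (SE), with an adjusted p of 0.0675 by edgeR's quasi-likelihood test (unadjusted p = 0.000821), just short of the threshold of 0.05. It was 0.0017 by DESeq2, and from 0.0017 to 0.0846 over the 6 alternatives. Of 12999 genes, 956 had a departure of that size or more in either direction. Adipocyte markers also set the left ventricle libraries apart, at a summed 56.5 CPM in WT and 0.888 in TKO, and their TKO over WT ratio was 0.528, 0.375 and 1.20 in infarct, border and remote zone. For fibroblast markers the genotype ratio stood at 1.08 in left ventricle and 0.833, 0.580 and 0.677 in the same zones. Macrophage and leukocyte markers were at 0.885, 0.744, 0.723 and 0.671, below 1 in all 4 regions. The sum of the atrial markers, Nppa included, was at 1.59, 0.687, 0.286 and 0.277. The part of these markers in the Hif1a difference was not tested.

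With TMM scaling Hif1a gave no call across regions. Infarct zone against left ventricle was 0.39 ± 0.28 on the log2 scale (adjusted p = 0.268, edgeR), and TKO against WT over all 4 regions was -0.11 ± 0.20 (adjusted p = 0.811, edgeR). With total counts Hif1a was called higher in infarct, by 1.07 against left ventricle (adjusted p = 0.0114, edgeR) and 0.94 against remote zone (adjusted p = 0.02, edgeR). The genotype value depended on which regions were included, at -0.37 without the left ventricle libraries (adjusted p = 0.0848, edgeR) and 0.03 without the border zone. Hif1a shares 330 exon bases with Gm15283 on the opposite strand and 148 with Gm49321 on its own strand, neither of which is in the table used here.

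Epas1, encoding the alpha subunit prominent in endothelium, lies at chr17:86753700-86833410. It was at 304.6 CPM in WT and 257 in TKO left ventricle, 199 and 248 in infarct, 269 and 320.0 in border, and 269 and 302 in remote zone. WT infarct was the lowest library, TKO infarct the next lowest and TKO border the highest. The TKO over WT ratio was 0.843 in the left ventricle (0.817 to 0.870) and above 1 in the other 3 regions, up to 1.25 in infarct. Neither the genotype difference (0.12 ± 0.12, adjusted p = 0.629, edgeR) nor infarct against left ventricle (-0.34 ± 0.17, adjusted p = 0.133, edgeR) passed. Infarct against remote zone was -0.35 ± 0.17 (adjusted p = 0.128, edgeR), and passed only without the left ventricle libraries (adjusted p = 0.0473, edgeR). Hif1a and Epas1 thus leaned opposite ways between the genotypes in each of the 4 regions. The ratio of Hif1a to Epas1 CPM, not per length, was 0.208 in the WT left ventricle and 0.401 in the TKO left ventricle. It was 0.612 and 0.401 in infarct, 0.426 and 0.252 in border, and 0.372 and 0.268 in remote zone, WT first.

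Hif3a, whose products include inhibitory forms, lies at chr7:17031507-17062427 and was the scarcest member, at 34 to 93 counts per library. Its level ran from 1.31 CPM in the TKO left ventricle to 2.76 in the TKO remote zone. The TKO over WT ratios were 0.666 in the left ventricle (0.421 to 1.04) and 1.79 in the remote zone (1.23 to 2.61), with wide counting intervals. The genotype difference over regions was 0.26 ± 0.28 (adjusted p = 0.652, edgeR).

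Arnt, the constitutive partner that all alpha subunits need to bind DNA, lies at chr3:95434388-95497240 and kept a narrow range. It measured 41.9 and 36.9 CPM in left ventricle, 46.5 and 46.4 in infarct, 39.6 and 40.9 in border, and 34.7 and 37.6 in remote zone, WT first. Both infarct libraries lay above the other 6. Arnt was higher in infarct than in remote zone by 0.36 ± 0.11 (adjusted p = 0.0297, edgeR), a 1.28-fold difference, and did not pass against the left ventricle (0.24 ± 0.11, adjusted p = 0.0981, edgeR). The remote zone call was lost with no filter on low counts (adjusted p = 0.0729) and without the border zone libraries (adjusted p = 0.0698).

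**Figure D2:**
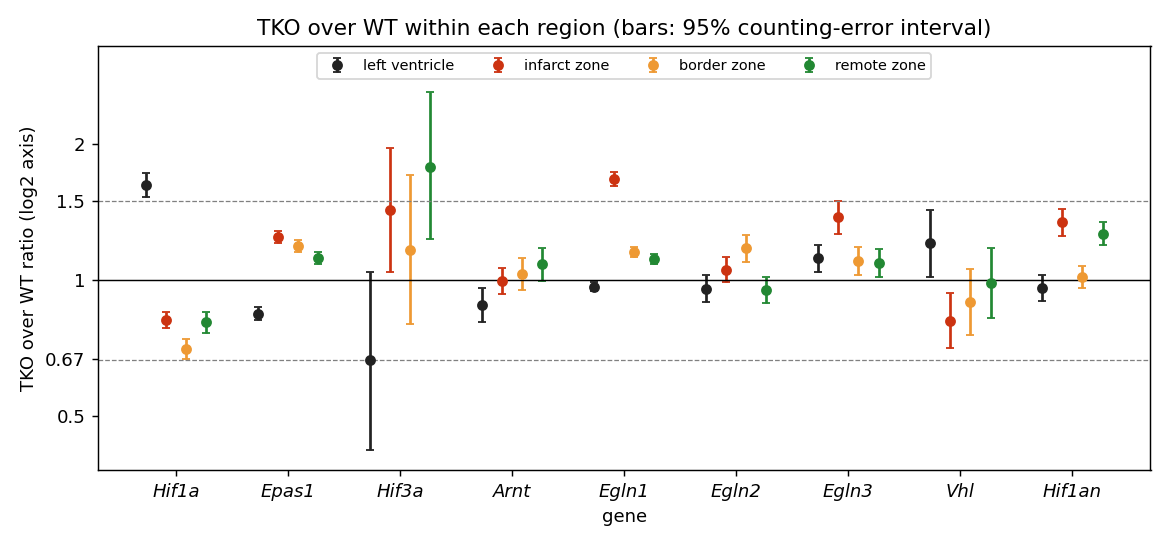
TKO over WT ratio (vertical, log2 axis) of each gene in each region, from 1 library per group. Bars are exact 95% intervals for counting error only and dashed lines mark 1.5-fold either way. Hif1a stands at 1.62 in the left ventricle and below 1 in the 3 zones, and Egln1 at 1.68 in infarct.

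Among the prolyl hydroxylases, Egln1, at chr8:124908587-124949324, measured 492.5 and 477 CPM in WT and TKO left ventricle. It fell to 137 and 229 in infarct, and stood at 365 and 422 in border and 404 and 450.3 in remote zone. The 2 infarct libraries lay below the other 6, with no overlap. Epas1, Egln2, Egln3 and Hif1an also had both infarct libraries below the rest, and Arnt had both above. How many of all genes separate the infarct libraries in this way was not counted, so it is not shown to be particular to these members. Of all genes, 56.8% were called in infarct against left ventricle. Infarct against left ventricle was -1.44 ± 0.21 (adjusted p = 0.00214, edgeR), a level of 0.368 of the left ventricle. Against remote zone it was -1.25 ± 0.21 (adjusted p = 0.00469, edgeR). The infarct level was 0.278 of the left ventricle in WT (0.269 to 0.287) and 0.481 in TKO (0.467 to 0.494). Between genotypes, TKO infarct held 1.68-fold the WT infarct level (1.62 to 1.73), while the ratio was 0.969 in left ventricle, 1.16 in border and 1.12 in remote zone. With total counts in place of TMM the infarct ratio was 1.37. The departure of the infarct zone was 0.64 ± 0.17, unadjusted p = 0.013 and adjusted p = 0.426 by edgeR, and adjusted p = 0.0304 by DESeq2, so the call rests on the tool. The summed cardiomyocyte markers moved beside it, at 0.203 of the left ventricle in WT infarct and 0.46 in TKO infarct, and at a TKO over WT ratio of 2.17 there. Their part in the Egln1 difference was not tested.

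Egln3, whose transcript is strongly oxygen-responsive in many cells, lies at chr12:54178981-54203860. It was at 59.7 and 66.8 CPM in left ventricle, 24.3 and 33.5 in infarct, 48.7 and 53.8 in border, and 49.9 and 54.3 in remote zone, WT first. As for Egln1, both infarct libraries were below the other 6. Egln3 was lower in infarct than in left ventricle by -1.14 ± 0.12 on the log2 scale (adjusted p = 0.000911, edgeR), to 0.453 of its level. Against remote zone the difference was -0.86 ± 0.12 (adjusted p = 0.00303, edgeR). Egln3 was the one member higher in TKO in 4 of 4 regions, with ratios from 1.09 in the remote zone to 1.38 in infarct. The genotype difference, 0.22 ± 0.08, had an unadjusted p of 0.0333 and did not pass after adjustment (adjusted p = 0.278, edgeR).

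Egln2, encoding a hydroxylase that is induced by oestrogen rather than by low oxygen, lies at chr7:27158658-27166802. Its levels were closer together, from 46.1 CPM in WT infarct to 63.1 in WT remote zone, with TKO infarct next lowest at 48.7. It was lower in infarct than in remote zone by -0.38 ± 0.11 (adjusted p = 0.0305, edgeR), and without the border zone libraries the adjusted p was 0.0502. Against left ventricle it was -0.31 ± 0.11 (adjusted p = 0.053, edgeR). Egln2 shares 11 exon bases with Cyp2t4 on the opposite strand, where reads could belong to either.
The balance of the 3 hydroxylases shifted with the region. Egln1 CPM, not per length, was 8.22 times that of Egln2 in the WT left ventricle and 8.31 times in the TKO left ventricle, against 2.97 times in WT and 4.71 times in TKO infarct. The ratio of Egln1 to Egln3 varied less, from 5.63 in WT infarct to 8.29 in TKO remote zone. These ratios within a library do not depend on how libraries were scaled.

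**Figure D3:**
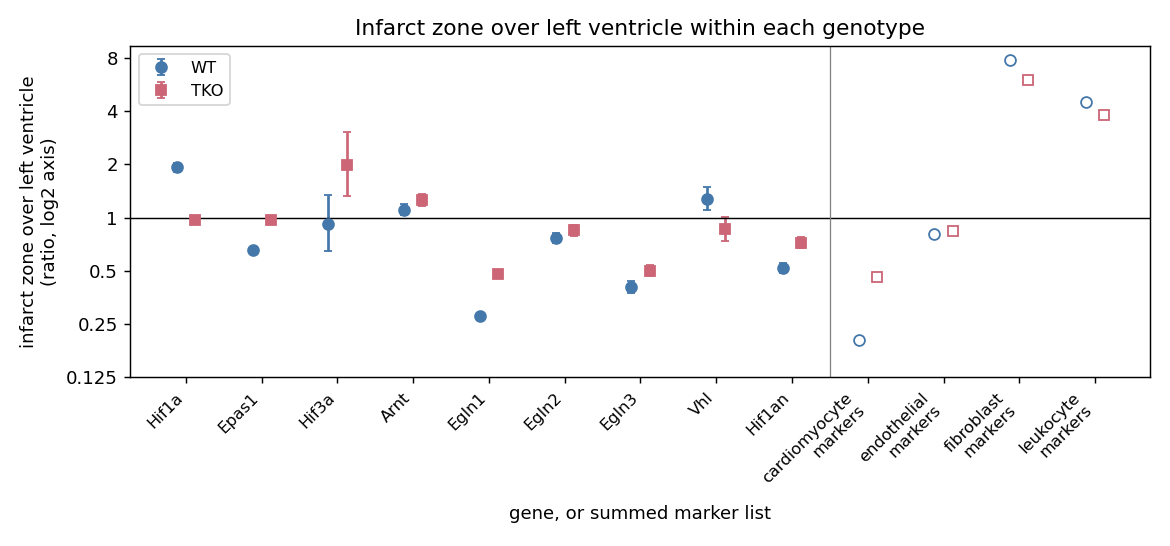
Infarct zone over left ventricle ratio (vertical, log2 axis) within WT (circles) and TKO (squares) for each gene, filled, with 95% counting-error intervals, and for summed marker lists, open and without intervals. Egln1 lies at 0.278 in WT and 0.481 in TKO, beside cardiomyocyte markers at 0.203 and 0.46.

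Vhl, the substrate receptor that captures hydroxylated HIF alpha, lies at chr6:113623959-113631633 and ranged from 8.37 CPM in TKO remote zone to 11.9 in WT infarct. With TMM scaling it gave no call. Infarct against left ventricle was 0.07 ± 0.16 (adjusted p = 0.745, edgeR). With total counts it was 0.76 (adjusted p = 0.0164, edgeR), and Vhl was also called higher than in remote zone (adjusted p = 0.00524, edgeR).

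Hif1an, which encodes FIH, the asparaginyl hydroxylase, lies at chr19:44562850-44576274. It measured 72.0 and 69.2 CPM in left ventricle, 37.3 and 50.0 in infarct, 76.1 and 77.4 in border, and 63.2 and 80.2 in remote zone, WT first. The 2 infarct libraries were again below the other 6. Infarct against left ventricle was -0.71 ± 0.15 (adjusted p = 0.00711, edgeR) and against remote zone -0.72 ± 0.15 (adjusted p = 0.00833, edgeR). TKO infarct stood at 1.34-fold the WT infarct level.

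Counted over the 9 members, infarct zone against left ventricle called 0 higher and 3 lower (Egln1, Egln3 and Hif1an), in a comparison where 56.8% of all genes tested were called. Infarct against remote zone called 1 higher (Arnt) and 4 lower (Egln1, Egln2, Egln3 and Hif1an), where 49.5% of genes were called. The members' shares, 33.3% and 55.6%, lay below the first background and near the second. Without the border zone libraries 3 members and 41.9% of genes were called against remote zone. The members' median log2 difference was -0.31 against left ventricle and -0.35 against remote zone, beside 0.02 over all genes in both.

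Scaling mattered for these calls, because TMM set the infarct libraries at factors of 1.54 (WT) and 1.26 (TKO), against 0.866 to 0.956 for the rest. With total counts in place of TMM the median of all genes moved by about 0.7 on the log2 scale, to 0.70 against left ventricle and 0.66 against remote zone. Egln1 and Egln3 stayed lower than in the left ventricle, but Hif1an fell to -0.03 (adjusted p = 0.866, edgeR) and was not called. Epas1 and Egln2 turned to 0.35 and 0.38, and Hif1a, Hif3a, Arnt and Vhl were called higher with Egln2. Egln1, Egln3, Hif1an, Epas1 and Egln2 lay below the median of all genes. The change of scaling moves all genes by nearly the same amount, so their place relative to the median could not differ between scalings. Against remote zone the members went from 1 higher and 4 lower to 3 higher (Hif1a, Arnt and Vhl) and 1 lower (Egln1) under total counts. Egln3, Hif1an and Egln2 were no longer called there (adjusted p = 0.101, 0.576 and 0.1, edgeR), and Egln2 turned to 0.26. Among all genes the split against left ventricle went from 3670 higher and 3715 lower to 7869 and 1084, and against remote zone from 3204 and 3226 to 7705 and 918.

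Border zone against left ventricle called 0 of 9 members, where 0.715% of genes were called, and Egln3 came nearest at -0.30 ± 0.12 (adjusted p = 0.255, edgeR). At an unadjusted p under 0.05, 1 member and 2333 genes passed, and DESeq2 called 0 members and 576 genes. Remote zone against left ventricle called 0 of 9 members and 0% of genes by edgeR, with 1 member and 1378 genes at an unadjusted p under 0.05, and DESeq2 called 162 genes and 0 members. TKO against WT over the 4 regions called 0 of 9 members, where 0.138% of genes were called. At an unadjusted p under 0.05 that comparison had 1 member and 2109 genes, and DESeq2 called 0 members and 342 genes.

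The departure tests ask whether the genotype difference in 1 region differs from that in the others. For the infarct zone 0 of 9 members and 0.00769% of genes were called by edgeR, with 1 member and 7.83% of genes at an unadjusted p under 0.05, and DESeq2 called 1 member, Egln1, and 288 genes. For the left ventricle 0 of 9 members and 0.646% of genes were called by edgeR, with 2 members, Hif1a and Epas1, and 16.8% of genes at an unadjusted p under 0.05, and DESeq2 called 1 member, Hif1a, and 280 genes. Single-region ratios past 1.5-fold were found for 2 members in the left ventricle (Hif1a and Hif3a; 15.2% of genes), 1 in infarct (Egln1; 16.6%), 0 in border (12.5%) and 1 in the remote zone (Hif3a; 10%). They compare 1 library with 1 and carry no test.

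HIF target genes were examined next. Of 45 genes widely given as HIF-induced, 43 were tested. Against left ventricle, 15 were higher in the infarct zone, 14 lower and 14 not called, so 67.4% were called where 56.8% of all genes were, with a median log2 difference of 0.13 beside 0.02 over all genes. The list thus split. The higher members were led by Lox, the collagen crosslinking enzyme, at 4.29 ± 0.20 (adjusted p = 0.000184, edgeR), a 19.6-fold difference. Slc16a3, the lactate exporter MCT4, was higher by 2.57. The lower members were led by Angptl4, a lipoprotein lipase inhibitor, at -1.90, Hk2, a muscle hexokinase, at -1.36, and Higd1a, a mitochondrial inner membrane protein, at -1.29. The fibroblast markers rose with Lox, to 7.78 times the left ventricle sum in WT infarct and 5.97 times in TKO infarct, and the cardiomyocyte markers fell with Hk2 and Higd1a, and the part of either in the list's split was not tested. With total counts in place of TMM the split was 26 higher and 6 lower, where 68.9% of all genes were called.

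**Figure D4:**
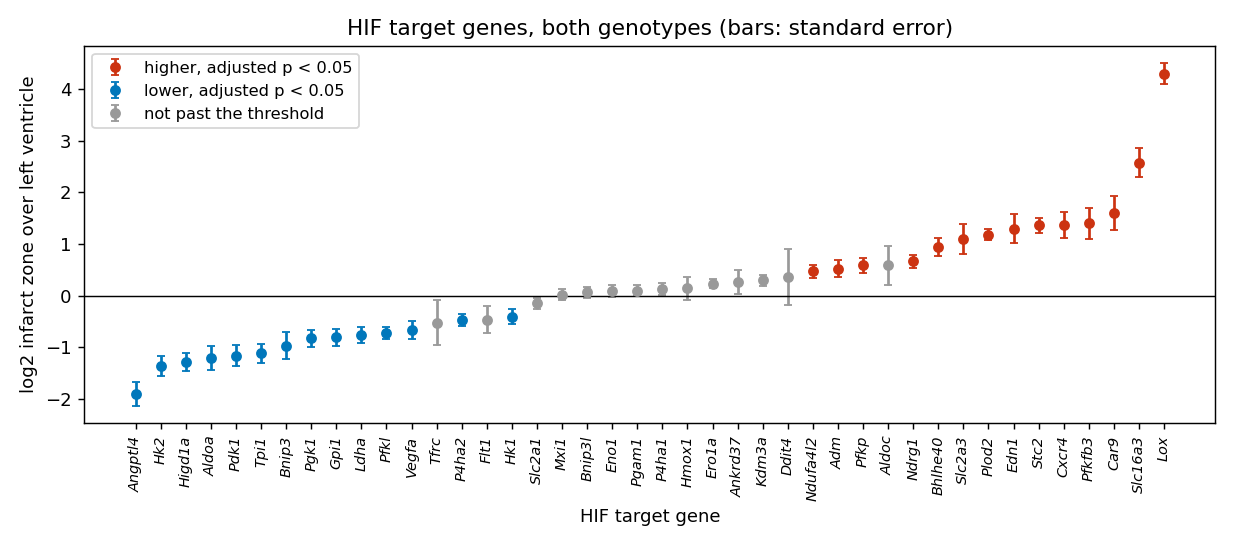
Log2 infarct zone over left ventricle (vertical) of 42 of the 43 tested HIF target genes, ordered by value, from the edgeR fit over both genotypes with standard errors as bars. Red points (14) are higher, blue points (14) lower and grey points (14) not past the threshold, from Angptl4 at -1.90 to Lox at 4.29.

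Against the remote zone, 17 target genes were higher in infarct and 11 lower, so 65.1% were called where 49.5% of all genes were. With total counts the split was 28 and 3, where 66.3% of all genes were called. Lox was higher by 3.86 and Slc16a3 by 1.92, and Hk2 (-1.17), Higd1a (-1.13) and Pdk1, the kinase that restrains pyruvate dehydrogenase, (-1.06) were lowest. Angptl4 was lower in infarct than in left ventricle but higher than in remote zone (adjusted p = 0.0169, edgeR). Its level was 28.6 CPM in WT and 17.9 in TKO left ventricle, and 2.46 to 9.08 in the 6 libraries of infarcted hearts, so both left ventricle libraries lay above all the others. Border zone against left ventricle called 2 target genes (4.65%), where 0.715% of all genes were called. They were Lox, higher by 2.15, and Angptl4, lower by -2.49, both with an adjusted p of 0.03 by edgeR. Without the infarct libraries 1 target gene was called there, of 6 genes in all. Without the remote libraries 0 target genes were called, and 1 gene in all. Remote zone against left ventricle called 0 target genes by edgeR. At an unadjusted p under 0.05 there were 4 (10.6% of all genes), and DESeq2 called 1 (1.25% of all genes). TKO against WT called 0 by edgeR, with 11 at an unadjusted p under 0.05 (16.2% of all genes). DESeq2 called 3, all 3 lower in TKO, where it called 2.63% of all genes.

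Of 20 HIF partner and turnover genes for coactivators, VHL complex subunits and chaperones, 19 were tested. In infarct against left ventricle 3 were higher, Os9 (0.68), a lectin of the endoplasmic reticulum reported to bind HIF-1 alpha, and the coactivators Ep300 (0.50) and Crebbp (0.46). There were 9 lower, led by Stub1, a chaperone-linked ubiquitin ligase, at -1.22, Hsp90ab1, a chaperone of HIF-1 alpha, at 0.502 of its left ventricle level, and Elob, a subunit of the VHL ligase, at -0.84. The list's median was -0.41, beside 0.02 over all genes, and 63.2% of it was called, where 56.8% of all genes were. Against remote zone 2 were higher, Os9 (0.82) and Crebbp (0.46), and 5 lower, with Stub1 (-1.05), the deubiquitinase Usp20 (-0.75) and Cul2, the VHL ligase scaffold, (-0.72) leading. Of the list, 36.8% was called against remote zone, where 49.5% of all genes were. With total counts the splits were 8 higher and 1 lower against left ventricle and 11 and 1 against remote zone. Total counts called 68.9% and 66.3% of all genes in these comparisons. In the border zone Cited2, a competitor of HIF for p300, was lower than in left ventricle by -0.84 (adjusted p = 0.03, edgeR). Of all genes, 0.715% were called in that comparison. The Cited2 call was lost when either the infarct or the remote libraries were left out. TKO against WT called 0 of 19 by edgeR, with 2 at an unadjusted p under 0.05, and 0 by DESeq2. The last 2 shares over all genes were 16.2% and 2.63%.

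For the 4 members with the widest range, the 3 genes closest over the 8 libraries were found by the root mean square difference of log2 levels, each centred on its own mean. Egln1 was closest to Hspd1, a mitochondrial chaperonin, at 0.0334, then Pdha1 and Idh3g, subunits of mitochondrial dehydrogenases, where the median over all genes was 0.644. Egln3 was closest to Pgm5 (0.0382), then Pdrg1 and Afg3l1, against a median of 0.502. Hif1an had D5Ertd579e (0.0756), Trak2 and Cep68, with a median of 0.429, and Hif3a had Arpp21 (0.102), Asah2 and Lrmda, with 0.459. All 8 libraries share the same regions and scaling, so these distances are descriptions. The nearest genes lie below the median distance by construction, so the medians only give the scale.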

How the data were processed

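Bulk RNA-seq of 8 mouse heart libraries was re-analysed from 1 table. The deposited values are estimated counts per gene, whole numbers, made by the authors with Trim Galore 0.6.5 and kallisto 0.46 on mm10 and summarised with tximport; the submitters' notes also name edgeR 3.34.1. Groups came from the labels, and 0 columns of other samples were present. Counts were fitted with edgeR 4.0.16 (R 4.3.3) in 1 quasi-likelihood model with region and genotype as additive terms. Each departure test was a separate fit with 1 more term, for genotype within the region tested. All fits used TMM factors, a filter of mean CPM of at least 1, and Benjamini-Hochberg adjustment over 12999 genes (threshold 0.05). With 1 library per genotype and region, regions or genotypes stand in for replicates: p-values bear on regions, not on mice, and only departure terms test a region by itself. The spread is therefore the departure from additivity. Ratios of 2 libraries have exact (Clopper-Pearson) 95% intervals, which cover counting error only. Scripts were tested on simulated data. Alternatives were other scalings, filters, DESeq2 1.42.0 and leaving out regions.

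The 9 members, the gene lists and the rules were chosen with earlier results of these data known. Named genes are the members, Tigar, the atrial markers, Adipoq and the genes that overlap a member. Up to 3 called genes per direction are named from the HIF target and partner lists in each comparison. The 3 nearest profiles of the 4 members of widest range are named too. Of the HIF target genes, 1 is counted but not reported here by name or value. Promoters beyond Egln3 and the values of Angptl4 were chosen after values were seen. Of 16994 gene identifiers, 16867 were in the GENCODE annotation (GRCm38). Strand of the libraries is not given in the sources used here. Figures were drawn with matplotlib 3.10.9.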

Additional observations from a re-analysis of the deposited data

Results flagged for a closer look

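Among the HIF target genes, 2 had a genotype difference in the left ventricle that differed from that in the 3 zones of infarcted hearts, by the test of the difference itself (edgeR quasi-likelihood test), which called 0.646% of all genes. Ddit4, an mTORC1 inhibitor induced by stress, departed by -2.19 ± 0.14 on the log2 scale (adjusted p = 0.0157, edgeR). It was at 103 CPM in WT and 30.3 in TKO left ventricle, and at 72.6 to 114.3 in the other 6 libraries, so the TKO left ventricle was the library that stood apart. Tfrc, the transferrin receptor, departed by 1.75 ± 0.15 (adjusted p = 0.0314, edgeR). It was at 15.4 CPM in WT and 48.2 in TKO left ventricle and at 20.6 to 37.9 in the other 6, so both left ventricle libraries lay outside that range, on opposite sides. Each rests on 1 library per genotype. The adipocyte marker Adipoq departed in the same libraries, by -5.00 ± 0.48 (adjusted p = 0.0357, edgeR), and its part in these differences was not tested.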

How the results depend on the processing

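With 1 library per genotype and region, neither mice nor technical repeats were replicated. Intervals therefore cover counting error only, and the spread behind the p-values is the departure from additive effects of region and genotype. Estimated counts depend on the transcript models, Hif3a rests on 34 to 93 counts, and RNA does not show HIF protein. The cause of the changes below was not tested, except where fewer samples or genes entered by construction. Infarct against left ventricle kept 3 called members under every alternative that left out a region. Of 12999 genes, 6487 were then called without the border zone and 6635 without the remote zone.

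With total counts in place of TMM, TKO against WT called 56 genes and Egln2 turned to -0.058. Infarct against left ventricle then called 7 members (68.9% of genes), with Epas1 at 0.346 and Egln2 at 0.377, and the WT ratio of Epas1 became 1.161. Border against left ventricle called 200 genes, with Egln2 at 0.051, and remote against left ventricle 18. Infarct against remote gave Epas1 0.277 and Egln2 0.259. The infarct departure was -0.251 for Arnt and -0.209 for Egln2, and the left ventricle departure called 275 genes and 1 member, with Egln3 at 0.052. Members past 1.5-fold between genotypes became 2 in infarct (Hif1a 0.6665 and Vhl 0.6639, with Egln1 at 1.367, Egln3 at 1.124, Hif1an at 1.095 and Epas1 at 1.017; 23.8% of all genes) and 1 in border (13.8%). With DESeq2's test, genes called were 342 for TKO against WT, 576 for border, 162 for remote, 288 for the infarct departure and 280 for the left ventricle departure, with 1 member in each departure. Arnt between genotypes was 0.004 with DESeq2's test or size factors, and 0.009 with no filter.

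With no filter, remote against left ventricle called 3 genes and Hif3a in infarct against remote was -0.016. When each library had to hold 10 counts of a gene, the remote comparison also called 3 genes, the infarct departure 0 genes with Arnt at -0.001, and the left ventricle departure 140 genes and 1 member. Members past 1.5-fold in the left ventricle were 1 with DESeq2 size factors and 1 without mitochondrial DNA-encoded genes.

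Leaving out a region gave 3 (remote zone) to 83 (left ventricle) genes for TKO against WT. It gave 1 to 6 genes for border against left ventricle and 0 to 1 for remote against left ventricle. Infarct against remote called 3 members and 5444 of 12999 genes without the border zone, and 6 members and 7446 genes without the left ventricle. The genotype difference ran from -0.368 to 0.026 for Hif1a, -0.046 to 0.053 for Arnt, -0.02 to 0.084 for Egln2 and -0.161 to 0.033 for Vhl.

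Per median transcript length, Egln1 over Epas1 was 1.117, Epas1 over Hif1a 1.707, and 5 members changed rank. Per union of exons, Epas1 over Hif1a was 2.993 and 2 members changed rank. No paired analysis was possible because the labels give no replicate numbers; region or genotype was already a block in each comparison.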
